A study of Danio rerio with 8 samples.

Results

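The HSP70 family comprises ATP-driven chaperones, and 10 of the 32520 genes in the deposited table belong to it by symbol: those whose symbol starts with hsp70 (hsp70.1, hsp70.3 and hsp70l) and those named HSPA4, HSPA8, HSPA9, HSPA13 or HSPA14, with HSPA4 and HSPA8 each borne by 2 Ensembl genes. The HSP70 of the endoplasmic reticulum, HSPA5, was left out of the family as defined here. RNA sequencing was done on whole zebrafish larvae at 2 days of age, untreated, in 4 control libraries labelled WT and 4 libraries homozygous for the nphp8 allele sa24730. The mutants lacked both maternal and zygotic wild-type nphp8, and the series design calls the controls siblings, whereas their label is wild type. The labels do not say how many larvae or clutches went into a library, so the p-values measure only the spread between these libraries, which may be technical.

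HSP70 proteins bind exposed hydrophobic stretches of unfolded proteins. They let go when a nucleotide exchange factor swaps ADP for ATP, and J-domain co-chaperones deliver the client and trigger ATP hydrolysis. Constitutive members such as HSPA8 serve folding and transport in unstressed cells, whereas the heat-inducible ones are switched on by heat shock factor 1 after heat or protein damage. In zebrafish, a heat-inducible hsp70 gene is also known to be expressed in the developing lens without heat.

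Levels are given in TPM, a length-normalised share of the transcripts of a library, so genes can be compared with each other, but the depth of a library and the reads behind a value are unknown. Each library detected 23637 to 23964 genes (TPM above 0). The transcript of the mutated gene, listed as RPGRIP1L, ran from 2.17 to 2.75 TPM in controls and from 0.72 to 0.78 TPM in mutants. Of 25 marker symbols for larval tissues, 22 were matched to a gene, and muscle, blood, epidermis, lens and hatching gland markers were all detected. Of the 20 such markers tested, 8 rose and 4 fell in the mutants, against 9.32% higher and 13.3% lower over all genes tested. These markers were chosen with earlier results of these data known, so no support is drawn from their counts. Reads from a whole animal do not separate fewer cells of a type from less RNA per cell.

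The family split into 2 genes that rose, 4 that fell and 4 that did not pass the test, by limma with Benjamini-Hochberg adjustment over 16560 genes. Over all those genes 22.6% were called, 9.32% higher and 13.3% lower. The excess of lower calls depended on scaling: 1543 genes were higher and 2202 lower in the deposited TPM, and 1843 and 1789 when the scaling ignored mitochondrially encoded transcripts and the top 50 genes. The low-level genes hsp70.1 and hsp70l rose about 3-fold, whereas the dominant cytosolic HSPA8 and one HSPA4 copy fell. The median log2 change of the 10 members was -0.06, beside -0.01 over all genes tested. In 6 of the 10 the mutant libraries lay wholly outside the control range, and the same held for 26.1% of all genes tested. A mean of at least 1 TPM over the 8 libraries was required, and hsp70.1 and hsp70l met it through their mutant libraries, so no support is drawn from the member count.

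**Figure D1:**
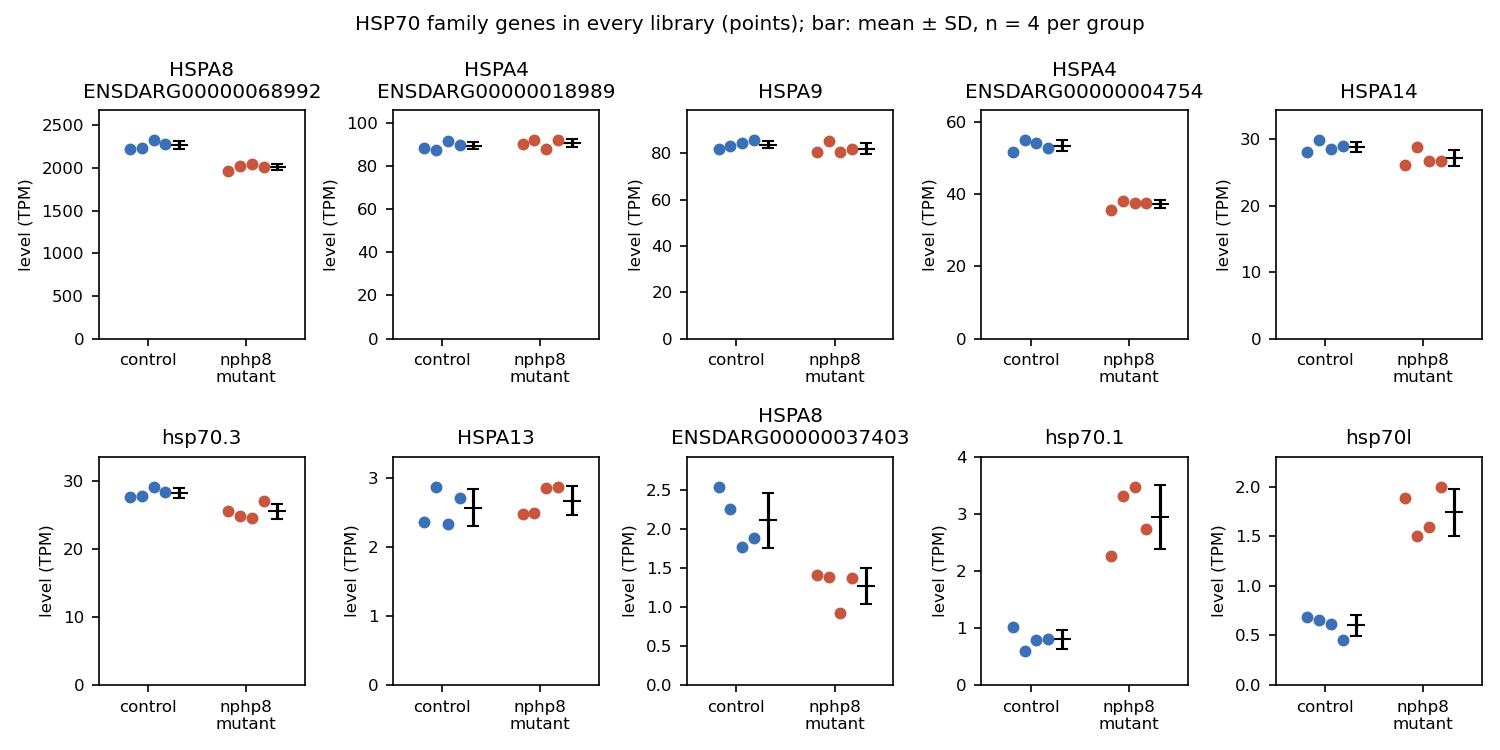
Level of each HSP70 family gene in TPM (vertical axes from 0, one scale per gene) in the 4 control and 4 nphp8 mutant libraries, each point a library and the bar its group mean ± SD. The mutant points lie above all controls for hsp70.1 and hsp70l and below them for both HSPA8 genes, HSPA4 ENSDARG00000004754 and hsp70.3.

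The gene hsp70.1 (ENSDARG00000029688), a heat-inducible cytosolic HSP70, averaged below 1 TPM in controls. Control replicates 1 to 4 had 1.01, 0.6, 0.79 and 0.81 TPM, whereas mutant replicates 1 to 4 had 2.26, 3.31, 3.48 and 2.73 TPM. Every mutant library was above every control. The mean went from 0.802 ± 0.168 to 2.94 ± 0.558 TPM (SD, n = 4 each), a ratio of 3.67. On the log2(TPM + 1) scale, which understates changes of low genes, it rose by 1.12 (SE 0.116, limma adjusted p = 0.000118). Among called genes, 21 had a larger increase. With genes of any level tested, its limma adjusted p was 0.000442.

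The gene hsp70l (ENSDARG00000055723), also heat-inducible, moved likewise. The controls, in the order of their replicate numbers, had 0.69, 0.66, 0.61 and 0.45 TPM and the mutants 1.88, 1.5, 1.59 and 2.0 TPM. Again the groups did not overlap. The mean went from 0.602 ± 0.107 to 1.74 ± 0.236 TPM (SD, n = 4 each), a ratio of 2.89, with a log2 change of 0.77 (SE 0.0932, limma adjusted p = 0.000314). With genes of any level tested the adjusted p was 0.000526. Together both genes summed to 4.69 ± 0.393 TPM in mutants against 1.41 ± 0.207 TPM in controls (SD, n = 4 each), still a small part of the family.

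The hsp70-named genes did not rise as a class. The third gene of the name, hsp70.3 (ENSDARG00000021924), was expressed at a far higher level and did not follow hsp70.1 and hsp70l. The larvae were untreated, so the response of these genes to heat was not measured. In these libraries hsp70.3 was the lower of the groups in mutants. This gene stood at 27.58, 27.77, 29.13 and 28.3 TPM in controls and at 25.56, 24.75, 24.55 and 27.06 TPM in mutants. The 4 mutant values lay below the 4 control values, but by little. The ratio of means was 0.904 and the log2 change -0.14 (SE 0.0385, limma adjusted p = 0.0257). This call was lost when control replicate 3 or 4, or mutant replicate 1, 2 or 3, was left out (adjusted p from 0.0541 to 0.0664), and when the scaling ignored mitochondrially encoded transcripts and the top 50 genes (adjusted p = 0.0535).

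The composition of the hsp70-named transcripts thus shifted while their sum did not separate the groups. The sum of the 3 genes was 29.28, 29.03, 30.53 and 29.56 TPM in controls and 29.7, 29.56, 29.62 and 31.79 TPM in mutants, and the ranges overlapped. The share of hsp70.1 and hsp70l together ran from 4.26% to 5.81% of that sum in controls and from 13.9% to 17.1% in mutants. Within libraries, the difference in log2(TPM + 1) between hsp70.3 and hsp70.1 narrowed from 4.02 ± 0.143 to 2.76 ± 0.25. That between hsp70.3 and hsp70l narrowed from 4.19 ± 0.116 to 3.27 ± 0.0733 (SD, n = 4 each). The added 1 TPM understates these differences, since hsp70.1 and hsp70l averaged below 1 TPM in controls. Each exact permutation p was 0.0286, two-sided, the smallest that 70 assignments of libraries allow, and 0.0476 adjusted over the 5 pairs of like-named genes. That outcome was fixed in advance, because every mutant library was lower in hsp70.3 and higher in the other genes than every control. No support is drawn from it. On the same scale, the difference between hsp70.1 and hsp70l went from 0.17 ± 0.162 to 0.52 ± 0.318 and did not pass (exact permutation p = 0.143). In a RefSeq annotation of another assembly, hsp70.1 and hsp70.3 lie on the same chromosome with 1 protein-coding gene, hsp70.2, between them, and hsp70l lies on another chromosome. No gene called hsp70.2 was analysed here. The authors' quantifier divides reads that fit several near-identical genes by an estimate, so the split among these genes is less certain than their sum.

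**Figure D2:**
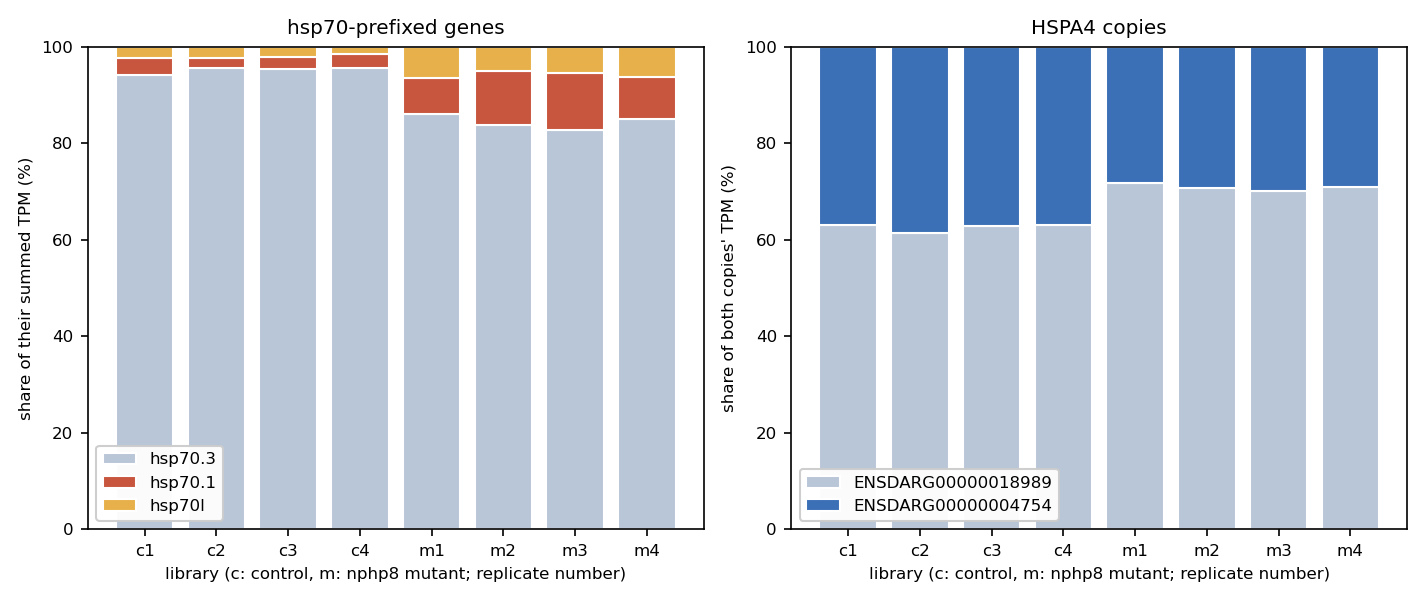
Share of each gene in the summed TPM of the hsp70-named genes (left) and of the HSPA4 copies (right), in percent (vertical axis) for each library (horizontal axis; c control, m nphp8 mutant). The share of hsp70.1 and hsp70l together is at most 5.81% in controls and at least 13.9% in mutants, and HSPA4 ENSDARG00000004754 makes up 36.8% to 38.5% in controls and 28.2% to 29.9% in mutants.

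HSPA8, the constitutive cytosolic HSP70 also called HSC70, made up most of the family's transcripts and fell. The abundant gene of that name (ENSDARG00000068992) stood at 2223.09, 2238.11, 2327.45 and 2287.02 TPM in controls and at 1966.68, 2028.35, 2046.16 and 2016.77 TPM in mutants. All mutant libraries lay below all controls. The mean went from 2269 ± 47.6 to 2014 ± 34.1 TPM (SD, n = 4 each), which gives a ratio of 0.888 and a log2 change of -0.17 (SE 0.0209, limma adjusted p = 0.000344). This gene accounted for 88.5% to 88.8% of the family's summed TPM in controls and 88.0% to 88.5% in mutants. The summed family level went from 2558 ± 51.1 to 2285 ± 36.3 TPM (SD, n = 4 each). Without it, the other 9 members summed to between 284 and 293.1 TPM in controls and between 266.1 and 277.5 TPM in mutants.

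The second HSPA8 gene (ENSDARG00000037403) was expressed at a few TPM at most and also fell. It ran at 2.55, 2.26, 1.77 and 1.89 TPM in controls and at 1.41, 1.39, 0.93 and 1.38 TPM in mutants, with no overlap. The ratio of means was 0.603, with a log2 change of -0.45 (SE 0.109, limma adjusted p = 0.0147). Whether its change differs from that of the abundant gene was not resolved. The within-library difference in log2(TPM + 1) went from -9.51 ± 0.193 to -9.80 ± 0.172 (SD, n = 4 each; exact permutation p = 0.0571, 0.0714 adjusted over the 5 pairs). The added 1 TPM understates the change of the low gene. At a pseudocount of 0.1 its log2 change was -0.69, against -0.17 for the abundant gene.

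The HSPA4 genes parted. HSPA4 belongs to the HSP110 branch of the family, which acts in mammals as a nucleotide exchange factor for the canonical HSP70s. The gene ENSDARG00000004754 stood at 51.6, 54.87, 54.06 and 52.73 TPM in controls and at 35.5, 38.05, 37.58 and 37.6 TPM in mutants. Its highest mutant library was below its lowest control. The mean fell from 53.3 ± 1.44 to 37.2 ± 1.14 TPM (SD, n = 4 each), which gives a ratio of 0.697 and a log2 change of -0.51 (SE 0.0329, limma adjusted p = 4.85e-06).

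The other HSPA4 gene, ENSDARG00000018989, stood at 88.44, 87.57, 91.57 and 89.8 TPM in controls and at 90.27, 91.95, 88.02 and 91.92 TPM in mutants. These ranges overlapped, and the log2 change of 0.02 (95% confidence interval -0.04 to 0.08) did not pass. The within-library difference in log2(TPM + 1) between the HSPA4 genes went from -0.73 ± 0.0468 to -1.26 ± 0.0479, without overlap of the groups (SD, n = 4 each; exact permutation p = 0.0286, 0.0476 adjusted over the 5 pairs). That adjustment counts the hsp70.3 pairs, whose outcome was fixed in advance, and the fall of ENSDARG00000004754 was already called. No support is drawn from the adjusted p. Together the HSPA4 genes went from 142.7 ± 2.29 to 127.7 ± 2.36 TPM.

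The organelle and ribosome-associated members did not pass. HSPA9, the mitochondrial HSP70 that draws proteins across the inner membrane and is mutated in the zebrafish crimsonless line, stood between 81.66 and 85.66 TPM in controls and between 80.43 and 85.22 TPM in mutants. Its log2 change was -0.03, with a 95% confidence interval of -0.09 to 0.03. HSPA14, which in mammals acts with the J-domain protein DNAJC2 on nascent chains at the ribosome, ran from 28.09 to 29.87 TPM in controls and from 26.19 to 28.85 TPM in mutants. Its log2 change was -0.09 (95% confidence interval -0.17 to -0.0020, limma adjusted p = 0.132), and leaving out mutant replicate 2 brought it past the threshold (-0.12, adjusted p = 0.0442). HSPA13, a microsome-associated relative lacking the substrate-binding domain, ran from 2.33 to 2.88 TPM in controls and from 2.48 to 2.87 TPM in mutants, with a log2 change of 0.04 (95% confidence interval -0.13 to 0.22).

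**Figure D3:**
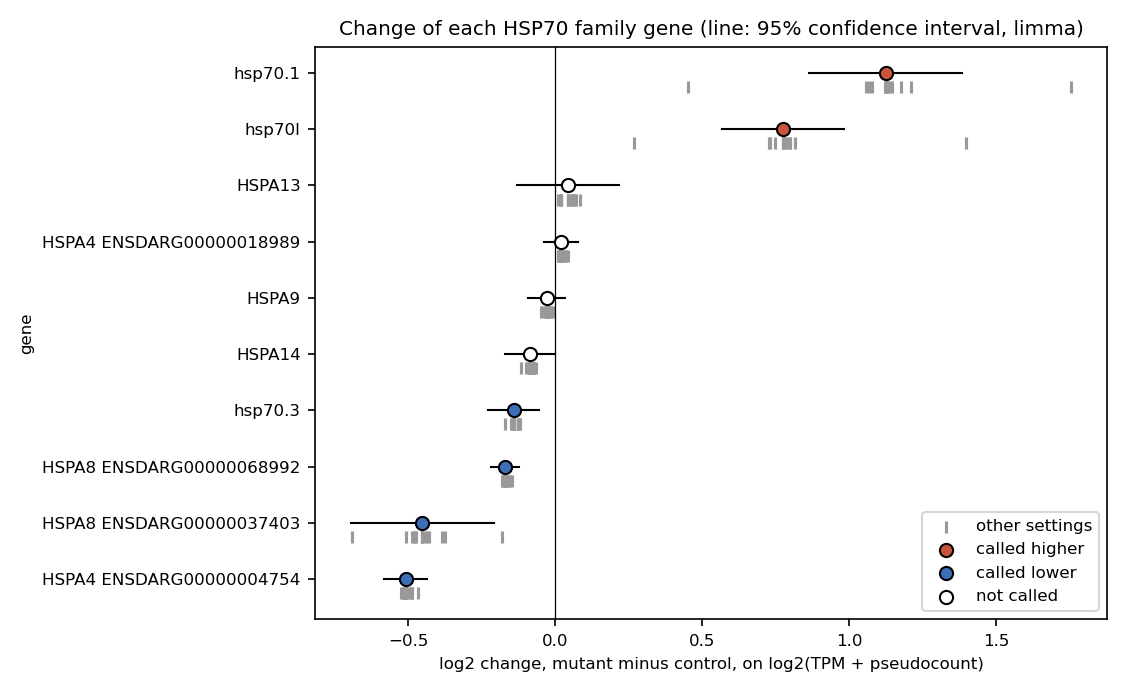
Change of each HSP70 family gene, mutant minus control, on the log2(TPM + pseudocount) scale (horizontal axis), with a point for the value at a pseudocount of 1, a line for its 95% confidence interval from limma, and grey ticks for the value under other settings, leaving out the sum of the hsp70-named genes. The outlying ticks of hsp70.1 (0.45 and 1.75), hsp70l (0.27 and 1.40) and the low HSPA8 gene (-0.18 and -0.69) come from pseudocounts of 5 and 0.1, and none of the ticks drawn lies on the other side of 0 from its point.

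By level, the order in controls was the abundant HSPA8 gene, HSPA4 ENSDARG00000018989, HSPA9, HSPA4 ENSDARG00000004754, HSPA14, hsp70.3, HSPA13, the low HSPA8 gene, hsp70.1 and hsp70l. Ranges of neighbours overlapped between HSPA14 and hsp70.3, between HSPA13 and the low HSPA8 gene, and between hsp70.1 and hsp70l. In the mutants the 4 lowest genes took another order, hsp70.1, HSPA13, hsp70l and the low HSPA8 gene, with overlapping ranges for hsp70.1 and HSPA13.

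Most partners of the HSP70 cycle did not pass. Of 55 cycle genes tested, 3 were higher and 14 lower (30.9% called, against 22.6% of all genes), with a median log2 change of -0.04. Over all genes tested 9.32% were higher and 13.3% lower. The cycle lists were chosen with earlier results of these data known, so no support is drawn from their counts. The 55 include 4 heat shock factor and HSF-binding genes, described below, which held 2 of the 3 higher calls. Among 25 J-domain genes 6 fell and 1 rose. The client-delivering partner dnaja1 went from 21.3 ± 1.12 to 14.4 ± 0.841 TPM (SD, n = 4 each). The gene dnajb1a, an orthologue of the heat-inducible HSP40, went from 12.4 ± 1.28 to 8.32 ± 0.714 TPM (SD, n = 4 each). The gene dnajb2, neuron-enriched in mammals, had a ratio of 0.691, and dnajb6b, an inhibitor of protein aggregation, rose 1.18-fold. The limma adjusted p of these 4 genes was 0.0118 at most. The more abundant dnajb1b, named after its values were seen, also fell (ratio 0.781, limma adjusted p = 0.000782). The more abundant DNAJA2 genes, chosen after their values were seen, did not pass (ratios 0.994 and 1.01).

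In the smaller groups of partners every call was lower, to be read against 22.6% called and 13.3% called lower over all genes. Of 11 nucleotide exchange factor genes, 3 fell and 0 rose. HSPBP1, which opens the nucleotide cleft of cytosolic HSP70, had a ratio of 0.704 (limma adjusted p = 0.000204), and BAG4 and the mitochondrial GRPEL1 had ratios of 0.900 and 0.912. HSPH1, the heat-inducible HSP110, lay below the filter, with a mean of 0.970 ± 0.144 TPM among controls against 0.573 ± 0.0862 TPM among mutants (SD, n = 4 each), and was chosen after its values were seen. Of 8 genes for handover to HSP90 and for ubiquitination, 2 fell, the HSP90 co-chaperone CHORDC1 (ENSDARG00000003973, ratio 0.579) and STIP1, which bridges HSP70 and HSP90 (ratio 0.896). Of 7 mitochondrial partners 3 fell: the chaperonin gene HSPD1 (ratio 0.876), its co-chaperonin HSPE1 (log2 change -0.27) and PAM16 of the import motor (ratio 0.893).

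Of 4 heat shock factor and HSF-binding genes tested, 2 rose and 0 fell, against 9.32% higher and 13.3% lower over all genes. The master regulator hsf1 averaged 3.18 ± 0.277 TPM among controls and 3.49 ± 0.245 TPM among mutants (SD, n = 4 each; log2 change 0.10, limma adjusted p = 0.331). HSF2 rose 1.23-fold (adjusted p = 0.00369) and HSBP1, which binds and restrains HSF1, rose 1.52-fold (adjusted p = 0.000178), whereas the second gene of that kind, hsbp1b, had a ratio of 0.971 and did not pass. HSF4, the lens heat shock factor, and HSF2BP were too low to be tested, with 0.463 ± 0.249 and 0.122 ± 0.102 TPM among controls and 0.507 ± 0.067 and 0.05 ± 0.056 TPM among mutants.

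Most other heat-inducible chaperones fell while hsp70.1 and hsp70l rose. Of 18 tested, 12 fell, 1 rose and 5 did not pass, against 13.3% lower over all genes, and their median log2 change was -0.27. Their summed level ran from 1743 to 1777 TPM in controls and from 1170 to 1228 TPM in mutants. This list overlaps the HSP70 cycle genes: CHORDC1 (ENSDARG00000003973), dnajb1a, dnajb1b, HSPD1 and HSPE1 are among the genes counted as lower in both. The heat-inducible and immediate-early lists were chosen with earlier results of these data known, so no support is drawn from their counts. The collagen chaperone SERPINH1 (ENSDARG00000019949), HSP90AA1 and hsp90aa1.1 fell most, to ratios of 0.282, 0.319 and 0.540, and the small heat shock gene hspb9 rose 1.14-fold. Of 15 immediate-early genes tested, which respond to handling among many stimuli, 11 fell and 0 rose, led by FOS, egr1 and JUNB (ENSDARG00000074378) at ratios of 0.252, 0.314 and 0.357. No label gives a batch, clutch or time of collection, so these cannot be told apart from genotype for any gene of the family.

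Lens, blood and muscle markers were among the genes that rose beside hsp70.1 and hsp70l. The lens list was chosen with earlier results of these data known, so no support is drawn from its count. Of 45 lens markers tested, 40 rose and 0 fell, and 9.32% of all genes tested rose. Their median log2 change was 0.56, and the 59 matched genes summed to between 3423 and 3524 TPM in controls and between 5288 and 5470 TPM in mutants. The lens gene CRYAA went from 4.05 ± 0.52 to 9.04 ± 0.255 TPM (SD, n = 4 each). The 3 largest log2 changes were those of crygm2d16 (1.88), crygm2d2 (1.34) and crygm2d5 (1.31). The 5 tested markers that did not pass included foxe3 and pitx3 (log2 changes -0.05 and -0.06), named after their values were seen. Further, 3 listed genes (crygm6, crygm7 and a CRYAB gene) were at 0 in every library. Many of the lens genes are γM-crystallin genes, and reads that fit several near-identical copies would be divided among them by an estimate. Their sequences were not compared here. Among the whole-larva markers, the embryonic globin hbae3 rose 1.80-fold and the muscle myosin gene myhz2 1.79-fold, whereas the globin gene hbae1.1, named after its value was seen, had a ratio of 0.970 and did not pass. The intestinal gene FABP2, the hatching enzyme gene he1.1 and the heart gene cmlc1 fell, to ratios of 0.735, 0.882 and 0.909. The part of lens, blood, muscle or any other tissue in the rise of hsp70.1 and hsp70l was not tested.

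**Figure D4:**
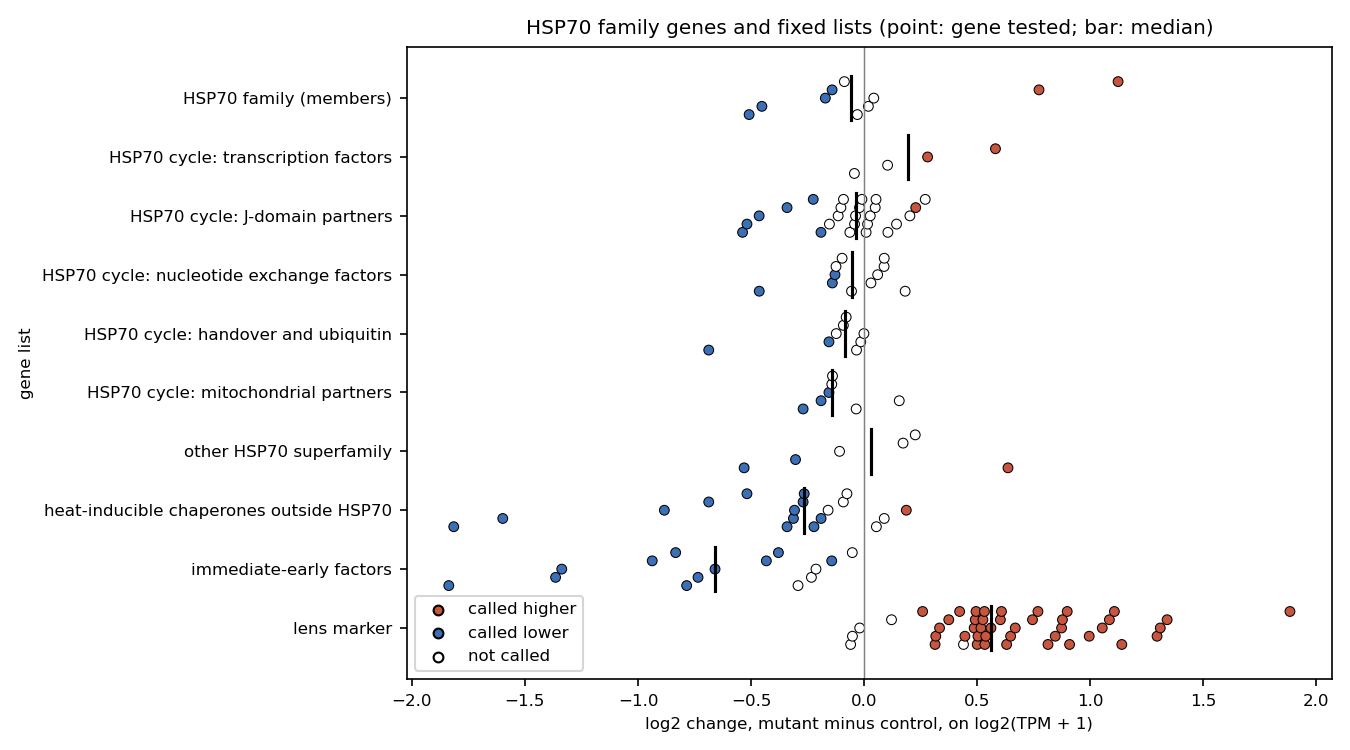
Log2 change, mutant minus control, of log2(TPM + 1) (horizontal axis) for the HSP70 family genes and for the genes tested of 9 lists (rows), each point a gene, filled where called, with a bar at the median. The lists were chosen with earlier results of these data known. The HSP70 family spans -0.51 to 1.12, the other heat-inducible chaperones have a median of -0.27 and the lens markers one of 0.56.

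Further HSP70-type genes outside the symbol rule rose and fell as well. HSPA2, a cytosolic HSP70 known in mammals from the testis, rose from 7.83 ± 0.429 to 12.8 ± 1.57 TPM (SD, n = 4 each; limma adjusted p = 0.000456). The gene named hsc70 (ENSDARG00000012381) rose from 4.79 ± 0.608 to 7.45 ± 0.63 TPM (adjusted p = 0.00156) and was chosen after its values were seen. The endoplasmic reticulum gene HSPA5 and the HSP110-like HYOU1 fell, to ratios of 0.691 and 0.806, whereas the microsome-associated HSPA13 of the family did not pass.

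Likeness of pattern was measured as the root mean square difference of mean-centred log2(TPM + 1) over the 8 libraries, among 16550 genes outside the family. The step between the groups weighs heavily in this measure, so the nearest genes are mostly ones with a similar log2 change. For hsp70l, at 0.77, the nearest genes named below had log2 changes of 0.74, 0.75 and 0.79. Shared regulation or shared cells were not tested. Closest to hsp70.1 were si:dkey-15j16.6 (0.0975), the photolyase-related cry-dash (0.137) and the lens gene crygm2d20 (0.139). Closest to hsp70l were crygm2d8 (0.0724), the embryonic globin HBE1 (ENSDARG00000045143, 0.0741) and the red cell membrane gene epb41b (0.0834). Closest to hsp70.3 were zgc:77439, RPL31 and DDX1 (0.021 to 0.0242), and closest to the abundant HSPA8 gene were BTF3, alox12 and nr2f5 (0.0104 to 0.0221).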

How the data were processed

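The authors deposited TPM per Ensembl gene and library, printed to 2 decimals. STAR 2.7.3a, RSEM 1.3.1 and the build GRCz11 are named in the submitters' processing notes; strand setting and annotation are not given in the sources used here. TPM keep no depth, so no interval or limit that needs a read count is given. Groups and replicate numbers came from sample titles. Symbols came from a table matching 29201 of 32520 identifiers, of which 6314 shared a symbol with another; such genes are told apart by identifier. A RefSeq table of GRCz12tu gave neighbours alone.

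The test was limma 3.58.1 in R 4.3.3 (trend, two-sided, no covariate) on log2(TPM + 1), over the 16560 genes averaging 1 TPM or more, adjusted by Benjamini-Hochberg, called under 0.05, and checked on simulated data. A log2 change is mutant minus control, and ratios are of mean TPM. Members and lists were chosen with earlier results of these data known. Lists were matched by symbol. Genes named are every member, up to 3 called genes per direction of each list, every listed transcription factor and the 3 nearest patterns to 4 members. Plots used Python 3.11.15 with matplotlib 3.10.9.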

Additional observations from a re-analysis of the deposited data

Results flagged for a closer look

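One value stood apart within its group. The low HSPA8 gene (ENSDARG00000037403) was at 0.93 TPM in mutant replicate 3, against 1.38 to 1.41 TPM in the other mutant libraries, by Dixon's ratio for 4 samples. Of 20 groups of 4 libraries examined, chance would flag about 1. Without that library the log2 change was -0.37 (limma adjusted p = 0.0325) and the gene was still called lower.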

How the results depend on the processing

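The called changes of hsp70.1, hsp70l, both HSPA8 genes and HSPA4 ENSDARG00000004754 kept direction and call under every alternative in which the gene itself was tested, among them both rescalings and each library left out. Among genes of at least 5 TPM, where hsp70.1, hsp70l, HSPA13 and the low HSPA8 gene are no longer tested, 0 members were higher. With the hsp70-named genes summed before the fit, the log2 change was 0.026 and did not pass (limma adjusted p = 0.636). The sign of the sum was opposite to that of hsp70.3. The sum cannot decide whether hsp70.1 and hsp70l rose, because hsp70.3 made up 94.2% to 95.7% of it in controls. The replicate numbers did not pair the libraries (correlations of same-numbered deviations from -0.102 to -0.0288), and with them as a replicate block 2932 genes were called against 3745, and hsp70.3 was not called (limma adjusted p = 0.0607). Without one library, 2987 to 3260 genes were called over all genes, 2 members were higher in each case and 3 or 4 were lower. Omitting mutant replicate 2 left 4, with HSPA14 called and hsp70.3 not. By direction, 1818 genes were higher and 1927 lower after median-of-ratios rescaling. The pseudocount set the size of change of the low genes: hsp70.1 changed by 1.75 at 0.1 and 0.45 at 5. The cause of these differences was not tested beyond what each setting removes. Depth is unknown, so the precision of genes near 1 TPM rests on the replicates alone.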

Other observations

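The remaining HSP70-type genes were low and did not pass. HSPA12A and HSPA12B, distant relatives of the family, averaged 1.94 ± 1.02 and 2.52 ± 0.344 TPM among controls, and 2.31 ± 1.0 and 2.26 ± 0.28 TPM among mutants (SD, n = 4 each), with limma adjusted p of 0.679 and 0.449. HSPA12A varied among libraries of 1 group, from 1.32 to 3.47 TPM in controls. The gene hspa1b had 1.71 ± 0.361 TPM among controls and 2.17 ± 0.353 TPM among mutants (limma adjusted p = 0.192). These 3 genes were chosen after their values were seen.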
